A study of Rattus norvegicus with 6 samples.

Results

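The genes described here are 9 transcripts by which cortical inhibitory interneurons are usually told apart: the neuropeptide precursors Sst, Npy, Vip, Cck, Crh and Tac1, and the calcium-binding proteins Pvalb, Calb1 and Calb2. They were chosen by name, with earlier results of these data known. Every probe set that the array's annotation assigns to exactly 1 of them was taken, whatever its value. All 9 genes had a probe set, and they were read by 11 of the 8740 probe sets tested. Of these 8740, 7006 were assigned to a single gene each, and together they represent 4736 genes. Sst and Tac1 had a pair of probe sets each. None of the 11 probe sets passed the test of LSD against saline.

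RNA of the mPFC, the medial prefrontal cortex, from male Sprague-Dawley rats was profiled on Affymetrix rat arrays, which read each transcript with a set of short probes. The 3 LSD arrays hold tissue taken 90 min after an intraperitoneal (i.p.) injection of LSD, a hallucinogenic agonist of serotonin receptors, at 1.0 mg/kg, and the 3 saline arrays hold tissue taken at the same time after saline. The labels state that the tissue of the 4 animals of a group was pooled, while the study's text speaks of 3 independent pools of a pair of rats, so the sources disagree. All p-values therefore cover only how far arrays of a group differ, and part or all of that may be technical. Groups follow the sample titles and the treatment field. A free-text line on every sample names the opposite treatment, and under that reading each sign given here would turn round.

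Cortical interneurons release GABA and fall into classes by the peptides and calcium buffers they make. Pvalb marks fast-spiking cells that contact the soma and axon initial segment of pyramidal cells, Sst marks cells that contact their dendrites, and Vip marks cells that mainly inhibit other interneurons. The peptides are cut from larger precursors, packed in dense-core vesicles and released upon strong firing, while the buffers bind calcium that enters during firing.

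Transcription of several of these peptide genes is known to respond to cyclic AMP and calcium through the cyclic AMP response element, TGACGTCA, which CREB family factors bind. The element and its first 5 letters, TGACG, which it contains on both strands, were searched on both strands of RefSeq windows of the GRCr8 rat assembly, from 250 bases before to 50 bases after each annotated start. A window was at hand for 5 of the 9 genes (Sst, Npy, Vip, Tac1 and Pvalb), and Cck, Crh, Calb1 and Calb2 are named only. The matching stretches are shown to let the Sst, Vip, Tac1 and Pvalb windows be compared, with the match in capitals, 5′ to 3′ on the strand of the gene:
Sst, chr11:90461520-90461565, plus strand: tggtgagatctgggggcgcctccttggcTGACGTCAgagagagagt
Vip, chr1:44470355-44470415, plus strand: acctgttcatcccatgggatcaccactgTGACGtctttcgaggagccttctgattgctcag
Tac1, chr4:36645349-36645409, plus strand: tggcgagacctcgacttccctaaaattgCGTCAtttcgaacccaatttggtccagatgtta
Pvalb, chr7:111666498-111666539, minus strand: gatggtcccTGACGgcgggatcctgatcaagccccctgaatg
The Sst window alone among these held the full element, which began at base 3 from the annotated start, so that the last 20 bases printed lie past it. Counted from the annotated start, TGACG began at base -97 in the Vip window and at base -241 in the Pvalb window, and in the Tac1 window it lay on the opposite strand, printed as CGTCA, at base -206. The Npy window had 0 matches. Of 33469 windows of the same length, 21.2% held TGACG on either strand and 1.83% held the full element. A match is a stretch of letters and was not tested for binding in these tissues.

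All arrays resembled each other closely, with correlations of 0.984 to 0.996 over 8740 probe sets, but the array saline 1 stood apart. On the LSD arrays 2 to 21 probe sets differed by over 1 log2 unit from the average of the remaining 5 arrays, against 78 on saline 1 and 6 to 12 on the other saline arrays. Over all probe sets, 6 of 8740 (0.0686%) passed at an adjusted p below 0.05 (limma), 1 higher and 5 lower upon LSD. The difference between the 3′ and 5′ control probe sets of beta-actin, a sign of RNA integrity, was 0.69 ± 0.041 log2 units on the LSD arrays and 0.79 ± 0.044 on the saline arrays (SD, n = 3 each), without overlap, and its part in the results below was not tested.

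Against that background, 0 of 11 member probe sets passed (limma, adjusted over 8740 probe sets). By their log2 change, which is the mean of the LSD arrays minus that of the saline arrays, 4 lay above 0 and 7 below, with a median of -0.03, beside 0.0045 over all probe sets. At an unadjusted p below 0.05 there was 1 member, a Tac1 probe set, where 3.92% of all probe sets met that mark. An exact rank test cannot go below p = 0.1 with 3 arrays against 3, and called 0 members. The same Tac1 probe set was the only member whose groups did not overlap, with LSD lower, as for 3.79% of all probe sets. For 0 members did the LSD arrays all lie above the saline arrays, which held for 6.58% of all probe sets. Across the members the 95% intervals reached at most a 1.33-fold increase and a 1.53-fold decrease.

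**Figure D1:**
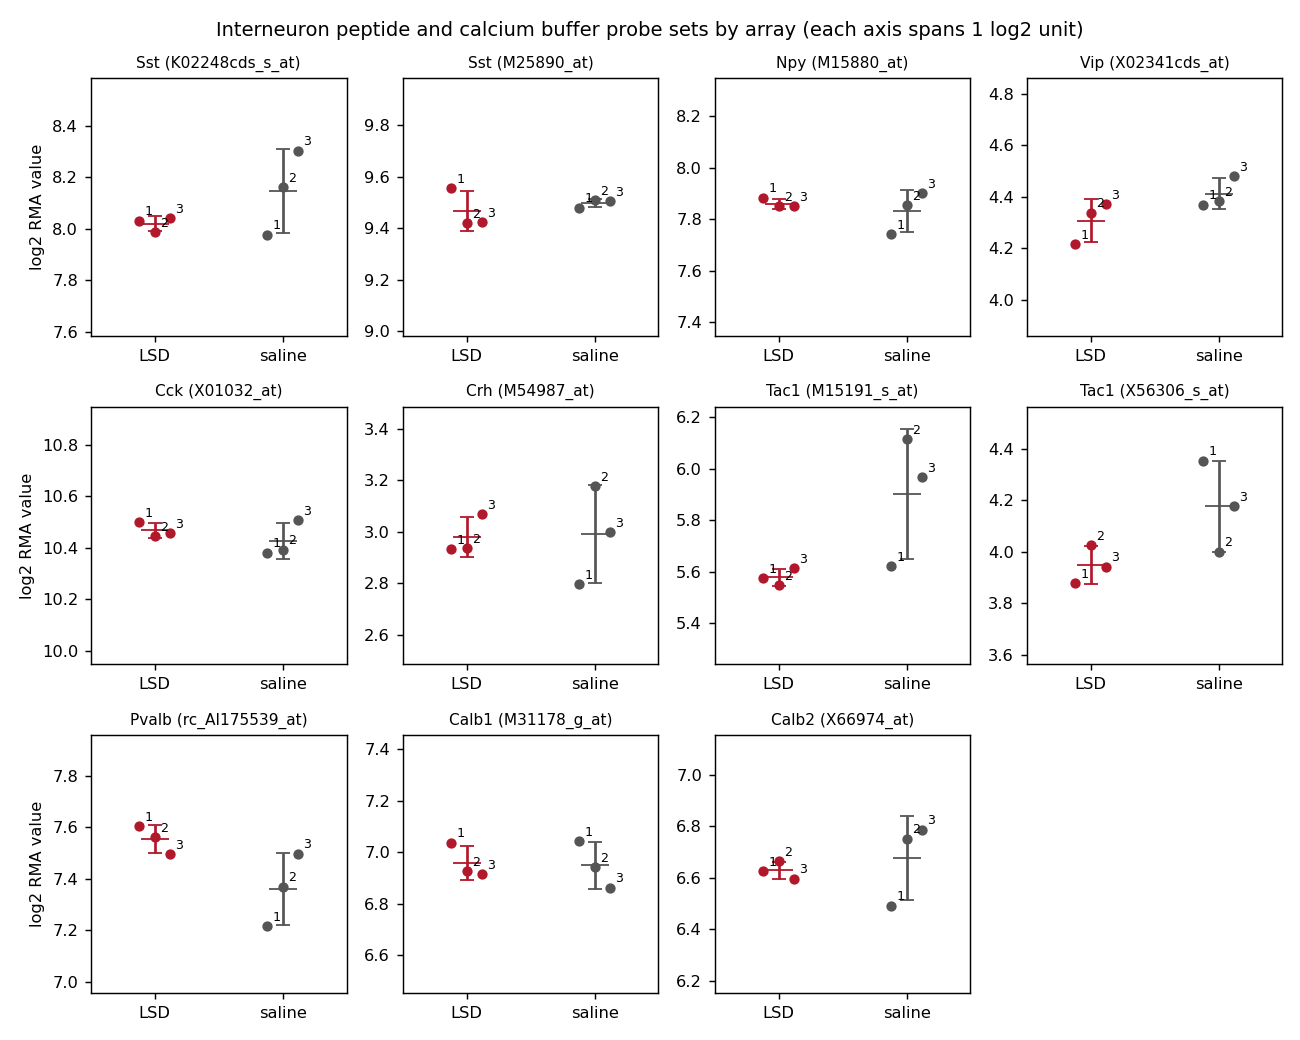
Log2 RMA value of each member probe set on every array, with the 3 LSD arrays on the left and the 3 saline arrays on the right of each panel. Points carry the replicate number, bars give the mean ± SD (n = 3), and every axis spans 1 log2 unit. The groups overlap in all panels but that of Tac1 M15191_s_at, where LSD 3 (5.61) lies just below saline 1 (5.62).

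Somatostatin (Sst) is an inhibitory peptide and the defining product of the dendrite-targeting interneurons. Its brighter probe set, M25890_at, read 9.56, 9.42 and 9.43 log2 units on LSD arrays 1, 2 and 3, against 9.48, 9.51 and 9.50 on saline arrays 1, 2 and 3. LSD 1 was the highest of the 6 and LSD 2 and 3 the lowest, so the groups overlapped. The log2 change was -0.03 ± 0.081 (SE), with a 95% interval from -0.22 to 0.16 (limma, adjusted p = 0.990), and leaving out 1 array at a time moved it between -0.08 and -0.0078.

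The other Sst probe set, K02248cds_s_at, read 8.03, 7.99 and 8.04 on the LSD arrays and 7.98, 8.16 and 8.30 on the saline arrays. Saline 2 and 3 were above every LSD array, but saline 1 was below them all. The change was -0.13 ± 0.10, with an interval from -0.36 to 0.10 (limma, adjusted p = 0.981). With saline 1 left out it was -0.21 ± 0.085, with an interval from -0.41 to -0.01 and an adjusted p of 0.542 (limma), and with saline 3 left out it was -0.05. Over the 6 arrays the pair of Sst probe sets had a Pearson r of 0.36. The suffix _s_at marks probes that can match several transcripts, so this signal may not be that of Sst alone. In bulk tissue, fewer cells of a type and less RNA per cell cannot be told apart, for these and for all values that follow.

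Neuropeptide Y (Npy) is made by a subset of the Sst cells and by neurogliaform cells. Its probe set read 7.88, 7.85 and 7.85 log2 units on the LSD arrays, against 7.74, 7.85 and 7.90 on the saline arrays. The LSD values lay within the range of the saline values, of which saline 1 was the lowest. The change was 0.03 ± 0.082, with an interval from -0.16 to 0.22 (limma, adjusted p = 0.990), and without saline 1 it was -0.02.

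Vasoactive intestinal peptide (Vip) marks interneurons that inhibit other interneurons. It read 4.21, 4.34 and 4.37 log2 units on the LSD arrays and 4.37, 4.38 and 4.48 on the saline arrays. LSD 3 lay marginally above saline 1 and was the only LSD array to reach the saline range. The change was -0.10 ± 0.086, with an interval from -0.30 to 0.09 (limma, adjusted p = 0.981), and without LSD 1, the lowest array, it was -0.06.

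Cholecystokinin (Cck) is made by a class of basket cells, and also by many cortical pyramidal cells, so its level is not that of interneurons alone. It read 10.50, 10.45 and 10.46 log2 units on the LSD arrays, against 10.38, 10.39 and 10.51 on the saline arrays. Saline 3 was the highest of the 6 and saline 1 and 2 the lowest, so the groups overlapped. The change was 0.04 ± 0.081, with an interval from -0.15 to 0.23 (limma, adjusted p = 0.989), and it was 0.02 without saline 1 and 0.08 without saline 3.

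Corticotropin-releasing hormone (Crh), the hypothalamic peptide that starts the hormonal stress response, is also made by some cortical interneurons. Its probe set was dim, with 5.14% of all probe sets dimmer, and read 2.93, 2.94 and 3.07 log2 units on the LSD arrays, against 2.80, 3.18 and 2.998 on the saline arrays. Saline 1 was the lowest and saline 2 the highest of the 6 arrays, with all LSD arrays between them. The change was -0.01 ± 0.11, with an interval from -0.27 to 0.25 (limma, adjusted p = 0.994). RMA narrows differences between dim probe sets, so the value is a weak measure of Crh.

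Tac1 encodes the precursor of substance P and neurokinin A, the tachykinins, and is made by some cortical interneurons and by striatal projection neurons of the direct pathway. Its brighter probe set, M15191_s_at, read 5.57, 5.55 and 5.61 log2 units on the LSD arrays and 5.62, 6.11 and 5.97 on the saline arrays. All LSD arrays lay below all saline arrays, but saline 1 was level with LSD 3 to within 0.01 log2 units, and only saline 2 and 3 were clearly higher. The means were 5.58 ± 0.033 for LSD and 5.90 ± 0.253 for saline (SD, n = 3 each).

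The Tac1 M15191_s_at change was -0.32 ± 0.13, or 1.25-fold lower upon LSD, with an interval from -0.62 to -0.03 (limma, unadjusted p = 0.0358, adjusted p = 0.981). This was the lowest p among the member probe sets, and it did not pass. Without saline 1 the change was -0.46 ± 0.086, with an interval from -0.67 to -0.26 (limma, adjusted p = 0.359), and without saline 2 it was -0.22. The smallest adjusted p that any alternative gave for Tac1 M15191_s_at was 0.0802, with arrays weighted by their quality in limma. The largest for this probe set was 0.999.

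The dimmer Tac1 probe set, X56306_s_at, read 3.88, 4.02 and 3.94 log2 units on the LSD arrays, against 4.35, 3.9996 and 4.18 on the saline arrays. Saline 1 and 3 lay above every LSD array, but LSD 2 exceeded saline 2. The change was -0.23 ± 0.11, with an interval from -0.48 to 0.02 (limma, adjusted p = 0.981), and it was -0.14 without saline 1 and -0.32 without saline 2. Both Tac1 probe sets thus had a change below 0, yet the saline arrays were in opposite order: saline 1 was the lowest of its group in M15191_s_at and the highest in X56306_s_at, while saline 2 was the reverse. Over the 6 arrays their r was 0.10. With each gene read by the mean of its probe sets, the Tac1 change was -0.28 (limma, unadjusted p = 0.0050, adjusted p = 0.969). Both Tac1 probe sets can match several transcripts.

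**Figure D2:**
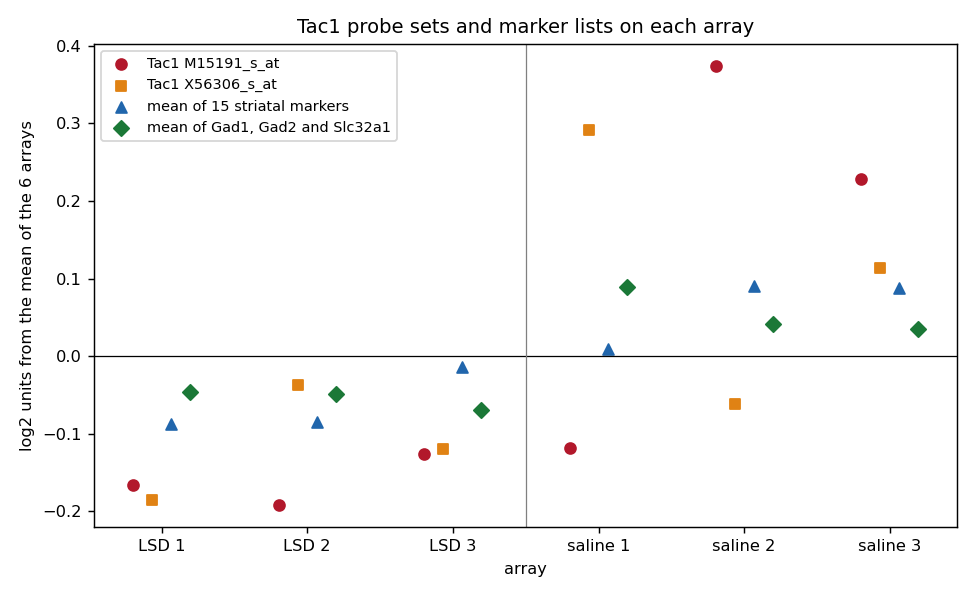
Deviation from the mean of the 6 arrays, in log2 units, of the 2 Tac1 probe sets and of the mean level of 15 striatal markers and of Gad1, Gad2 and Slc32a1, with LSD arrays left and saline arrays right of the grey line. All 4 measures lie below 0 on every LSD array, and Tac1 M15191_s_at is at -0.12 on saline 1, near its values on the LSD arrays, while X56306_s_at is at 0.29 there.

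Because Tac1 is abundant in the striatum, which borders the dissected area, striatal markers are given beside it. Of 22 such markers 15 were measured, and 12 had a change below 0, against 48.3% of all genes. For 4 the groups did not overlap, with LSD lower, against 3.34% of all genes. Their mean level was 6.31 to 6.38 log2 units on the LSD arrays and 6.41 to 6.49 on the saline arrays, without overlap. The 4 were Penk, the enkephalin precursor, with a change of -0.46, Arpp21 with -0.36, Rgs9 with -0.18 and the adenosine receptor Adora2a with -0.11, and 0 of the 15 passed (limma). The dopamine receptor genes Drd1 and Drd2 overlapped, with changes of -0.14 and -0.10, as did Pdyn, a peptide of the cells that make Tac1 there, with 0.07. Markers of choroid plexus and meninges were also lower in mean level. It was 6.97 to 7.06 on the LSD arrays and 7.23 to 7.26 on the saline arrays. Of these markers, 6 of 6 changes were below 0, against 48.3% of all genes. They were led by Ttr with -0.49, Enpp2 with -0.41, which overlapped, and Igf2 with -0.24. Groups did not overlap for 2, Ttr and Igf2, with LSD lower, against 3.34% of all genes. General neuron markers lay the other way in mean level, which was 9.10 to 9.15 on the LSD arrays and 8.93 to 9.04 on the saline arrays. Of 7 measured, 5 changes were above 0 and 2 below, with a median of 0.15. The 2 were Map2 with -0.09 and Uchl1 with -0.015. Groups did not overlap for 4, with LSD higher (6.97% of all genes). These were Nefm with a change of 0.37, Syt1 with 0.33, Nefl with 0.22 and Snap25 with 0.13. Of other Snap25 probe sets, AB003991_g_at was at 0.10 without overlap and AB003992_s_at at -0.06 with overlap. The mean levels of excitatory neuron, astrocyte, oligodendrocyte, microglia and hypothalamic and olfactory markers overlapped between the groups. None of these markers passed (limma), and the part of any of these cell sources in the Tac1 and other member values was not tested.

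Parvalbumin (Pvalb), the fast calcium buffer of fast-spiking cells, had the largest change above 0 among the members. It read 7.60, 7.56 and 7.494 log2 units on the LSD arrays and 7.21, 7.37 and 7.496 on the saline arrays. LSD 1 and 2 were above every saline array, and saline 3 exceeded LSD 3 by less than 0.01 log2 units. The change was 0.19 ± 0.097, or 1.14-fold, with an interval from -0.03 to 0.42 (limma, adjusted p = 0.981), and it was 0.12 without saline 1, the lowest array, and 0.26 without saline 3, the highest of its group.

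Calbindin (Calb1), found in interneurons and in superficial pyramidal cells, read 7.04, 6.93 and 6.92 log2 units on the LSD arrays and 7.04, 6.94 and 6.86 on the saline arrays. The groups spanned nearly the same range. The change was 0.01 ± 0.088, with an interval from -0.19 to 0.21 (limma, adjusted p = 0.993).

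Calretinin (Calb2), which many Vip cells also make, read 6.63, 6.66 and 6.60 log2 units on the LSD arrays, against 6.49, 6.75 and 6.79 on the saline arrays. Saline 1 was the lowest and saline 2 and 3 the highest, with the LSD arrays between them. The change was -0.05 ± 0.10, with an interval from -0.28 to 0.18 (limma, adjusted p = 0.990), and it was -0.14 without saline 1 and 0.0074 without saline 3.

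**Figure D3:**
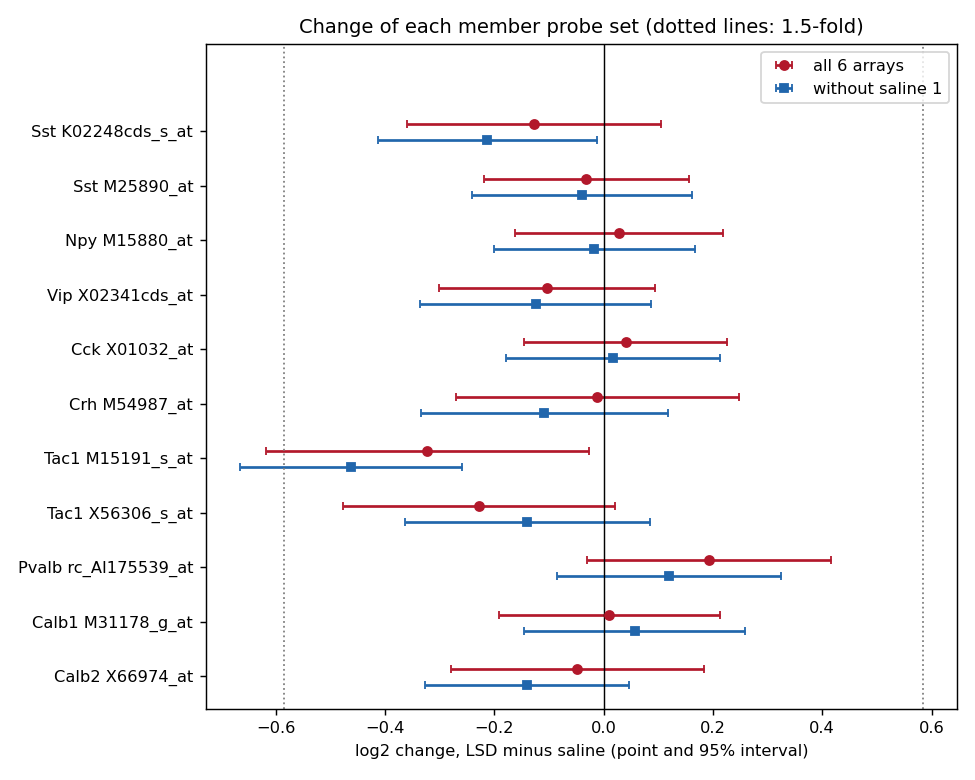
Log2 change (LSD minus saline) of each member probe set with its 95% interval, for all 6 arrays (circles) and without saline 1 (squares); dotted lines mark 1.5-fold. With all 6 arrays only the interval of Tac1 M15191_s_at (-0.62 to -0.03) leaves out 0, and without saline 1 that of Sst K02248cds_s_at (-0.41 to -0.01) does as well.

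The array saline 1 bore on many members at once. It was the lowest saline array in 9 of 11 member probe sets, as in 43.4% of all probe sets, and the exceptions were Tac1 X56306_s_at and Calb1, where it was the highest. Without it, 2 members (Tac1 M15191_s_at and Sst K02248cds_s_at) were at an unadjusted p below 0.05, where 9.22% of all probe sets were, and 0 passed after adjustment. The saline arrays also spread more widely: the SD was larger among saline than among LSD arrays in 9 of 11 member probe sets, against 53.6% of all probe sets. The median SD of the members was 0.055 log2 units among LSD arrays and 0.141 among saline arrays, against 0.112 and 0.120 over all probe sets.

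Over the 6 arrays some members varied together. Sst K02248cds_s_at followed Calb2 with an r of 0.84 and Tac1 M15191_s_at with 0.83, and Pvalb followed Cck with 0.83 and Npy with 0.82. Npy also followed Calb2 and Cck, with an r of 0.80 each. Opposite patterns were found for Pvalb and Tac1 X56306_s_at, with an r of -0.77, and for Calb1 with Calb2 and with Vip, with -0.73 each. These values describe 6 arrays that share their normalisation and, in saline 1, an array that is low for most members.

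**Figure D4:**
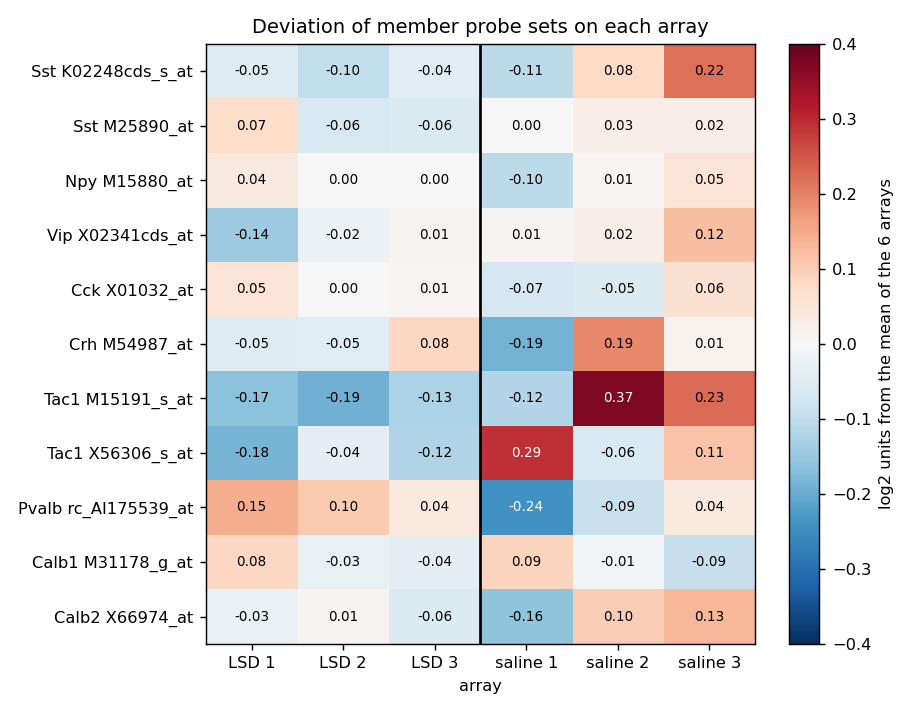
Deviation of each member probe set (rows) from its mean over the 6 arrays, in log2 units, by array (columns), with LSD arrays left and saline arrays right of the black line; red is above and blue below the mean. The LSD columns run from -0.19 to 0.15, while Pvalb is at -0.24 and Crh at -0.19 on saline 1 and Tac1 M15191_s_at at 0.37 on saline 2.

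Among other genes, each by its brightest probe set, the patterns most like those of the members were sought over the 6 arrays, among 2367 or 2368 genes of at least median SD. For Sst these were Nos1ap (r = 0.989) and Slc5a5 (0.968). Those for Npy were Scg2 (0.985), a granin of dense-core vesicles, and Pak1 (0.977). For Vip they were Rnh1 (0.979) and Acvr1c (0.973), and for Cck Sec22a (0.942) and Racgap1 (0.936). Crh was followed by Cd55 (0.992) and Mak (0.981). Tac1 was followed by Pdlim4 (0.975) and Taf6 (0.971), and Pvalb by Cwc25 (0.987) and the cell adhesion gene Cntn1 (0.971). Calb1 was most like Sult1b1 and Cyp19a1 (0.979 each), and Calb2 like Nfib and Mtor (0.987 each). With 6 arrays and this many genes compared, the values describe likeness alone.

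The receptors of the member peptides gave the counterpart to the ligands. Of 20 receptor genes 15 were measured and 0 passed (limma), where 0.0211% of all genes passed. At an unadjusted p below 0.05 there were 0 as well. A change below 0 was found for 11 and one above 0 for 4, with a median of -0.05, beside 0.0056 over all genes.

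Among these receptors, 2 did not overlap between the groups, both with LSD lower (3.34% of all genes) and both for tachykinins. Tacr1, the receptor of substance P, read 3.05, 3.26 and 3.35 log2 units on the LSD arrays, against 3.81, 3.37 and 3.40 on the saline arrays. Saline 1 alone was well above the LSD arrays, and LSD 3 lay close to saline 2. The change was -0.31 ± 0.14 (limma, adjusted p = 0.981), in a probe set with only 11.5% of probe sets dimmer.

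Tacr2, which prefers neurokinin A, read 5.94, 5.97 and 5.99 on the LSD arrays and 6.29, 6.12 and 6.07 on the saline arrays. The LSD arrays lay close together below all saline arrays, of which saline 1 was the highest. The change was -0.19 ± 0.090 (limma, adjusted p = 0.981). The third of the family, Tacr3, which prefers neurokinin B, had a change of -0.05 with overlap. Above 0, the receptors of lowest p were Cckbr, the brain receptor of cholecystokinin, with 0.04, and the somatostatin receptor Sstr3, with 0.03.

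Other genes linked to interneurons were counted beside the members, and not all of them mark these cells alone. Of 50 listed genes 29 were measured and 0 passed (limma). At an unadjusted p below 0.05 there was 1, Bcan, where 152 of all 4736 genes met that mark. Of the 29 genes, a change below 0 was found for 19 and one above 0 for 10, with a median of -0.07. Their mean level was 5.60 to 5.61 log2 units on the LSD arrays and 5.63 to 5.68 on the saline arrays. Groups did not overlap for 2 with LSD lower, Tacr1 and Bcan (3.34% of all genes), and for 1 with LSD higher, Reln (6.97%). Bcan encodes brevican of the perineuronal nets, which enclose Pvalb cells in particular, and had a change of -0.18 ± 0.077 (limma, adjusted p = 0.981). The level of Bcan need not be that of interneurons. Reln encodes reelin, a secreted protein of superficial interneurons, and had a change of 0.16 ± 0.087 (limma, adjusted p = 0.981), and Sncg, a marker of Cck cells, had one of 0.19.

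The enzymes and transporter common to all GABA cells were also read. Gad1, an enzyme that makes GABA, read 8.06, 7.89 and 7.74 log2 units on the LSD arrays, against 8.13, 8.03 and 8.12 on the saline arrays. LSD 1 lay within the saline range, and LSD 2 and 3 lay below it. The change was -0.20 ± 0.10 for Gad1 and -0.13 ± 0.088 for Gad2, the other such enzyme (limma, adjusted p = 0.981 each). For Slc32a1, the vesicular GABA transporter, it was -0.0017 by the brighter and 0.07 by the dimmer probe set. The mean level of the 3 genes was 6.75 to 6.78 on the LSD arrays and 6.86 to 6.91 on the saline arrays, without overlap, and its part in the member values was not tested.

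Peptide maturation and dense-core vesicle genes, which serve all the peptide members, had 16 of 19 genes measured and 0 passed (limma), with 0 at an unadjusted p below 0.05. Changes were above 0 for 10 and below for 6, with a median of 0.02. Only Scg5, the chaperone of the convertase Pcsk2, did not overlap, with LSD higher and a change of 0.16 ± 0.086 (limma, adjusted p = 0.981). LSD was higher without overlap for 6.97% of all genes. Cadps2, a priming factor of vesicle release, had a change of 0.21, while the protease Ctsl had one of -0.09 and Cadps one of -0.07.

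Of 36 other neuropeptide precursors 29 were measured and 0 passed (limma). Among the 29, changes were above 0 for 16 and below for 13, with a median of 0.0080. At an unadjusted p below 0.05 there was 1, where 152 of all 4736 genes met that mark. That 1 was Penk, the precursor of the enkephalins, which is made by cortical interneurons and is also among the striatal markers above. It read 6.09, 6.03 and 5.97 log2 units on the LSD arrays, against 6.35, 6.55 and 6.59 on the saline arrays. All LSD arrays lay below all saline arrays. The change was -0.46 ± 0.094 (limma, adjusted p = 0.341). Ucn, a relative of Crh, had a change of 0.14 and did not overlap, with LSD higher, as for 6.97% of all genes. Pnoc, the nociceptin precursor of some interneurons, had one of -0.17, and Adcyap1, a relative of Vip, one of 0.16.

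Among other calcium-binding proteins 24 of 40 were measured and 0 passed (limma). At an unadjusted p below 0.05 there were 3, where 152 of all 4736 genes met that mark. Of the 24 genes, changes were above 0 for 14 and below for 10, with a median of 0.07. Groups did not overlap for 5 with LSD higher, where 6.97% of all genes did so, and for 1 with LSD lower, where 3.34% did so. Ppp3r1, the regulatory subunit of the phosphatase calcineurin, had a change of 0.33 ± 0.092 (limma, adjusted p = 0.874), and the neuronal calcium sensor Vsnl1 had one of 0.19. S100a10, an annexin partner, had a change of -0.27 ± 0.093, and the astrocyte protein S100b one of -0.24 ± 0.097 (limma, adjusted p = 0.981 each). Without saline 1, 0 genes of any of these 5 lists passed.

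**Figure D5:**
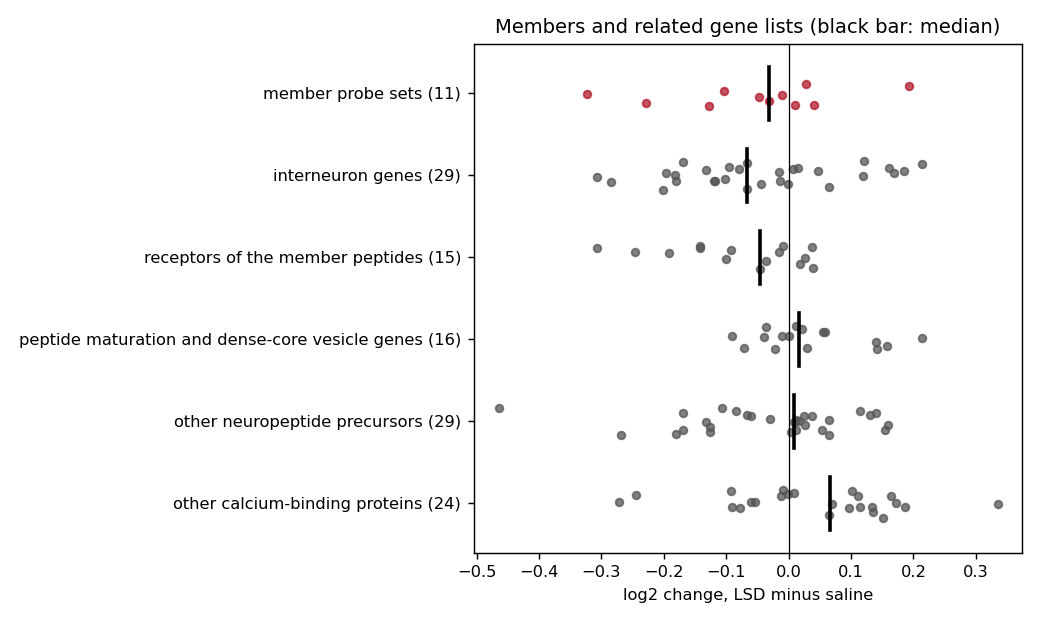
Log2 change (LSD minus saline) of the 11 member probe sets and of the measured genes of 5 related lists, 1 point per probe set or gene with vertical jitter, and black bars at the medians. The medians lie between -0.07 (interneuron genes) and 0.07 (other calcium-binding proteins), and 0 points passed the test.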

How the data were processed

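Affymetrix rat arrays of the mPFC (3 LSD, 3 saline) were used. The deposited log2 values come from the authors' run of rma in the affy package (background correction, quantile normalisation across arrays, summary per probe set); its version is not given in the sources used here. Such values hide changes shared by most transcripts. From 8799 probe sets, 59 controls were left out. Of the other 8740, 7006 had 1 gene symbol in the platform annotation, 308 several and 1426 none. LSD was tested against saline by a two-sided limma fit without covariates (lmFit and eBayes, limma 3.58.1, R 4.3.3), and p-values were adjusted by Benjamini-Hochberg over 8740 probe sets with a threshold of 0.05. The script was tested on simulated data. In lists a gene stood by its brightest probe set. Named were all members, the 2 genes of lowest p per direction in each of the 5 gene lists and the inhibitory markers. Tacr3 and the striatal, choroid plexus and neuron markers were named after their values were seen. Members and lists were chosen with earlier results of these data known. Alternatives were other scalings, a filter on dim probe sets, other priors, array weights, a replicate block, an exact rank test, other probe set summaries, and leaving out each array. The number of arrays limits the precision.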

Additional observations from a re-analysis of the deposited data

How the results depend on the processing

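No member probe set passed under any alternative run, and of 162 member values under alternatives 152 kept their direction and side of the threshold. The other 10 changed sign, all near 0, and the cause was not tested. The 152 include values that could not change sign, because the alternative keeps the estimate of the main fit. This holds for the filter on dim probe sets, the intensity trend and robust prior, and the replicate block. It also holds for the exact rank test and the brightest probe set per gene. The exact rank test could not pass any probe set either, as its p cannot go below 0.1. Calb1 was at -0.0021 with cyclic loess and between -0.033 and 0.057 when each array was left out. Cck was at -0.011 and Npy at -0.023 with array weights. Leaving out each array gave -0.14 to 0.0074 for Calb2, -0.11 to 0.082 for Crh and -0.017 to 0.062 for Npy. A filter to probe sets above the median level dropped Vip, Crh and Tac1 X56306_s_at. Over all probe sets, where 6 passed (limma), 16 did with that filter, 20 with an intensity trend and robust prior, 42 with array weights (21 in each direction), 1 with the brightest probe set per gene, 0 with the exact rank test and 0 to 3 when each array was left out (3 without saline 1). With the replicate number as a block 0 passed, and the labels do not state that arrays of the same number are paired. After the group mean of each probe set was subtracted, LSD and saline arrays of the same number had correlations of -0.02, -0.23 and 0.17. Those of different numbers ran from -0.15 to 0.20. List counts without saline 1 were added after seeing the data. The number of arrays, and the low signal of Crh, Vip and Tac1 X56306_s_at, limit what can be detected.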
